A study of Mus musculus with 4 samples.

Results

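Plasma cells are the antibody-secreting end stage of the B cell lineage, and 10 genes that direct this step or equip the cell for secretion were followed in activated mouse B cells with 1 or no intact allele of Aff3, which encodes a nuclear protein. They are the transcription factor genes Prdm1, Irf4, Xbp1 and Zbtb20, the antibody assembly genes Jchain and Mzb1, the surface marker Sdc1, and the endoplasmic reticulum genes Sec11c, Fkbp11 and Txndc5. A probe was taken as a member when its accession was a RefSeq transcript of one of these symbols. This gave 1 probe for each of the 10 genes, among 39429 gene probes on the array and 20140 genes that could be named. Probes were matched by name and not by signal, but the genes themselves were chosen with earlier results of these data known.

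In a B cell that turns to secretion, Irf4 at a high level switches on Prdm1, which encodes Blimp-1, and Blimp-1 shuts down the B cell programme. Xbp1 is spliced and translated under load in the endoplasmic reticulum and enlarges the secretory apparatus, while Zbtb20 supports the survival of plasma cells. Jchain links IgM and IgA into polymers, Mzb1 is a luminal cochaperone that aids immunoglobulin assembly, and Sdc1, or CD138, is the heparan sulfate proteoglycan by which plasma cells are sorted. Sec11c is a catalytic subunit of signal peptidase, Fkbp11 a prolyl isomerase and Txndc5 a disulfide isomerase. Culture of spleen B cells with LPS drives such differentiation, and IL-4 added to it favours class switching.

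The groups were Aff3+/- cells, which keep 1 intact allele and are taken as the reference, and Aff3-/- cells, each with 2 samples and 1 Agilent array per sample. No wild-type sample was used here, and the age and strain of the mice and the way the allele was disrupted are not given in the sources used here. All 4 samples were splenic B cells depleted of cells that bear CD43, a surface protein that plasma cells carry, and all received LPS (10 ug/mL) and IL-4 (10 ng/mL) for 3 days. Whether the 2 samples of a genotype are from different animals is not stated, and their spread, on which every p-value rests, may be technical. In bulk RNA, fewer cells of a type and less RNA per cell cannot be told apart.

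Each array had 24942 to 25862 of its probes well above background, no gene spot was saturated, and the 4 arrays shared 1 slide and 1 scan. The B lineage markers Cd79a, Cd79b, Ms4a1, Cd74 and Pax5 were well above background in every sample. Of T cell markers 3 of 6 were, Cd3g and Cd247 on no array. Summed levels were taken with each array's 75th percentile set to 100. The T cell sum, mostly from Cd4, was 242 to 262 in Aff3+/- and 229 to 246 in Aff3-/- cells. Only 1 of 6 NK cell markers, Prf1, passed (77.0 to 88.1 against 69.9 to 87.6). So did 1 of 4 neutrophil markers, Elane (44.8 to 89.9 against 53.5 to 57.3). These 2 sums came mostly from the gene named. Of monocyte and macrophage markers 4 of 6 did (744 to 863 against 718 to 785), mostly from Itgam, but Lyz2 and Fcgr1 did so on no array. Dendritic cell markers had 3 of 5 (9301 to 10280 against 8935 to 9347), mostly from Siglech, with Xcr1 and Clec9a on none. Stromal and endothelial markers had 4 of 5 (37.5 to 45.8 against 33.3 to 39.6), mostly from Pecam1, with Col1a1 on none. Of red cell genes, Alas2 was well above background on no array, and the haemoglobin gene Hbb-bt did not overlap between genotypes, at 13413 and 10525 intensity units in Aff3+/- and 8583 and 6533 in Aff3-/- cells. The other haemoglobin gene, Hba-a1, was dim and overlapped (+0.49 ± 0.70, SE, on the log2 scale, Aff3-/- minus Aff3+/-). Among markers of other cells, Cd8a (+1.01 ± 0.43, well above background on 3 of the arrays) and Zbtb46 (+0.52 ± 0.16) also lay above without overlap, and Cdh5 (-0.61 ± 0.24), Acta2 (-0.36 ± 0.12) and Siglech (-0.11 ± 0.12) below. The part of these signals in the differences between genotypes was not tested. The Aff3 transcript was not analysed here, so each direction rests on the labels.

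The comparison of Aff3-/- with Aff3+/- cells addresses how these genes differ when the remaining Aff3 allele is lost as well. All 10 members were well above background on all 4 arrays, so that every member passed the filter on dim probes. Of the 10 members 7 had a higher mean in Aff3-/- cells and 3 a lower one, where 44.9% of all 25115 probes tested were higher (56.3% with median scaling and 52.7% with normexp background correction). The differences ran from -0.10 for Zbtb20 to +0.33 for Jchain on the log2 scale, with a median of +0.04. Over all probes the median was -0.01. None of the 10 passed the adjusted threshold of 0.05 in limma (adjusted p of 1.00 for each), and none reached an unadjusted p under 0.05, against 0% and 1.97% of all probes. In 1 member, Jchain, both Aff3-/- arrays lay above both Aff3+/- arrays, and in 0 below, against 8.18% and 11.4% of all probes (19.6% in either direction). The balance of all probes turned with the scaling, from 2054 above and 2867 below to 2860 and 2134 with median scaling and 3048 and 2449 with normexp. Jchain was also the only member with a difference of 0.2 or more in either direction, a size that 15.4% of all probes reached. With 2 arrays per genotype an exact permutation test of a single gene cannot go below p = 0.33 (two-sided), so only the fit across all probes could pass.

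**Figure D1:**
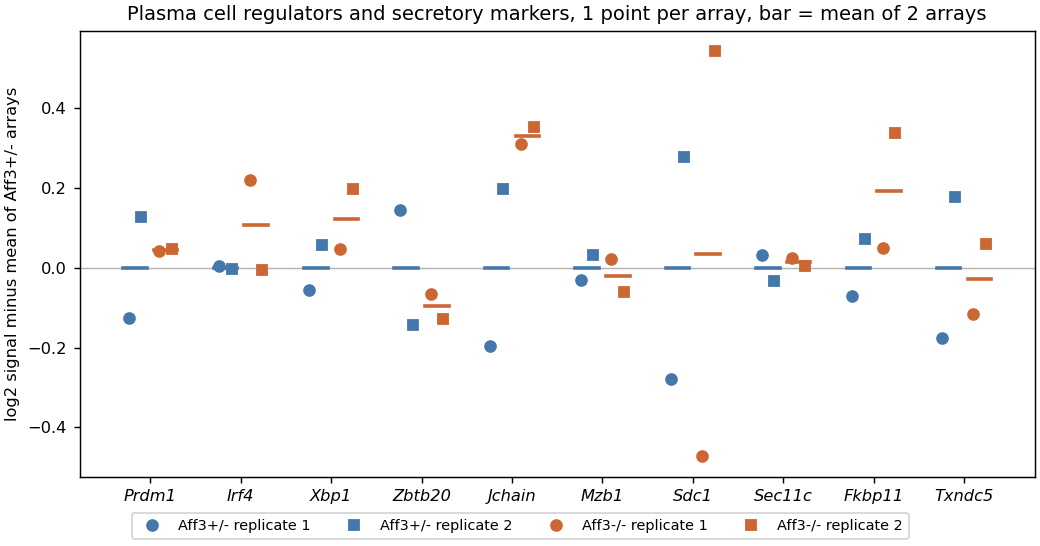
Log2 signal of each of the 10 members on each array, relative to the mean of the 2 Aff3+/- arrays of the same gene (y axis, log2 units). Circles are arrays of replicate 1 and squares of replicate 2, blue for Aff3+/- and orange for Aff3-/-, and bars are means of 2 arrays. Only for Jchain do both orange points lie above both blue points, and Sdc1 has the widest spread.

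Promoter sequence was searched for the binding motifs of the regulators among the members. RefSeq windows (GRCm38.p6) of 300 bases, from 250 before to 50 after a start site, were used. Both strands were searched for 8 of the 10 genes, in 11 windows. Mzb1 and Sec11c were not searched, so nothing is said of their promoters. The motifs were AGNGAAAG for Prdm1, GAAANNGAA for the interferon-stimulated response element read by IRF factors, GGAANNGAA for the composite element of ETS and IRF factors, and TGACGTGG and TGACGTGT for Xbp1. GAAANNGAA and GGAANNGAA can overlap. Positions are counted from 0 at the start site.

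Of the 8 genes searched, only Fkbp11 and Txndc5 held a match. In 1 of its 2 windows Fkbp11 had TGACGTGT on the reverse strand at -1 to 6, a motif found in 0.472% of all 32851 windows. Txndc5, which has 3 windows, had TGACGTGG at -138 to -131 in one of them (0.676% of all windows). Another of its windows held AGNGAAAG at -220 to -213 (8.63% of windows) and GGAANNGAA at -171 to -163 (8.24%). The outermost window held GAAANNGAA on the reverse strand at -240 to -232 and at -162 to -154 (8.56%). Prdm1, Irf4, Xbp1, Zbtb20, Jchain and Sdc1 had no match to these letters in their windows. A match is a description of sequence and shows no binding, and the 2 genes with a match lay on both sides of 0 (Fkbp11 +0.19, Txndc5 -0.03).

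The 250 bases before the start site are shown for Jchain, the only member without overlap between genotypes, for Xbp1, a regulator whose motifs were searched, and for the outermost start of Txndc5, which held the most matches to 1 motif. Each is written 5′ to 3′ on the strand of the gene, with matched motifs in capitals. Jchain is at chr5:88527898-88528147 (minus strand), Xbp1 at chr11:5520391-5520640 (plus strand) and Txndc5 at chr13:38528825-38529074 (minus strand).
Jchain: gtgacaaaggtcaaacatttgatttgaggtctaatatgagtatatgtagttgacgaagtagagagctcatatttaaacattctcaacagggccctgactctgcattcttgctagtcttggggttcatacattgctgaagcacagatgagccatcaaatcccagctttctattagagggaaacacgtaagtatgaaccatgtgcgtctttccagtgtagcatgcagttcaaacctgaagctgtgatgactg
Xbp1: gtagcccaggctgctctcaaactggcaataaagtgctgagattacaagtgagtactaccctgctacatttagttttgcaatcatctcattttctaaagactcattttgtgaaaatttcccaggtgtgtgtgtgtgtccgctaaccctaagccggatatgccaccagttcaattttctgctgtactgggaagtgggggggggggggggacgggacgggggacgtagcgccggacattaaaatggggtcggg
Txndc5: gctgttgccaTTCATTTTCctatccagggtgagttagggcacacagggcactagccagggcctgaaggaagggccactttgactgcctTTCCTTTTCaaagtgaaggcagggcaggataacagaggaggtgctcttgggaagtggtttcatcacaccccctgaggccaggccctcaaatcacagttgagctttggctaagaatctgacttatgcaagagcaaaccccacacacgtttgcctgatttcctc
The Jchain and Xbp1 stretches carry no capitals, and the 2 matches of Txndc5 read the motif on the opposite strand. The share of G and C was 42% for Jchain, 50.4% for Xbp1 and 52% for Txndc5. Over the same 250 bases of all windows the median was 52.4%.

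Among the regulators, the Prdm1 probe read 799 and 1010.3 intensity units in the Aff3+/- samples (replicates 1 and 2) and 929.7 and 909 in the Aff3-/- samples. Both Aff3-/- values thus lay between the Aff3+/- values. The log2 difference, Aff3-/- minus Aff3+/-, was +0.04 ± 0.14 (SE, n = 2 per genotype, limma), and its 95% interval ran from -0.32 to +0.41.

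Irf4 read 7291 and 7696 units in Aff3+/- cells and 8772 and 7310.5 in Aff3-/- cells. Its Aff3-/- replicate 1 stood above the other 3 arrays, which differed little from each other. On the log2 scale relative to the array's 75th percentile, the SD was 0.005 between the Aff3+/- arrays and 0.16 between the Aff3-/- arrays. The difference was +0.11 ± 0.13 (SE, n = 2), with an interval from -0.24 to +0.45.

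Where the single Xbp1 probe lies relative to the spliced segment is not given in the sources used here, so no form is told apart. It read 38542 and 44224 units in Aff3+/- cells and 42875 and 46382 in Aff3-/- cells. After scaling to the 75th percentile, Aff3-/- replicate 1 (5.02, log2) lay just below Aff3+/- replicate 2 (5.03), so that the genotypes overlapped. The difference was +0.12 ± 0.13 (SE, n = 2), with an interval from -0.21 to +0.45, and it was positive both between the arrays numbered 1 (+0.10) and between those numbered 2 (+0.14).

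Zbtb20 had the most negative difference of the 10. The probe read 2509.8 and 2182 units in Aff3+/- cells and 2249 and 2098 in Aff3-/- cells. Only Aff3+/- replicate 1 stood apart, above the other 3 arrays, and the difference of -0.10 ± 0.15 (SE, n = 2; 95% interval -0.48 to +0.29) became +0.05 when that array was left out.

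Jchain had the largest difference of the 10 members and the only one without overlap. Its signal was 11884 and 16569.7 units in Aff3+/- cells and 17483 and 17564 in Aff3-/- cells. The Aff3-/- samples were nearly alike (SD 0.03, log2, n = 2), and most of the spread lay between the Aff3+/- samples (SD 0.28), of which replicate 1 was the low one. The log2 difference was +0.33 ± 0.17 (SE), or 1.26-fold (95% interval 0.92 to 1.72), with an adjusted p of 1.00 in limma and an unadjusted p of 0.11. With its sign it was above the difference of 97.3% of all probes tested, and in size above that of 93.5%. The difference was +0.13 when Aff3+/- replicate 1 was left out and +0.53 when Aff3+/- replicate 2 was, so that its size depended on which Aff3+/- array was used.

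Mzb1 was measured by 10 spots per array, and the other members by 1. Its mean was 66373 and 73581 units in Aff3+/- cells and 71293 and 65611 in Aff3-/- cells. The order of the genotypes was opposite between the arrays numbered 1 (+0.05) and those numbered 2 (-0.09). Single spots of an array had an SD of 0.03 to 0.05 on the log2 scale, and the array values, each a mean over 10 spots, had an SD of 0.05 between Aff3+/- and 0.06 between Aff3-/- samples. The difference was -0.02 ± 0.11 (SE, n = 2), with an interval from -0.32 to +0.28, and it turned to +0.007 when arrays were scaled to their median.

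Sdc1, the classical surface marker of plasma cells, gave a dim signal in all samples. It read 44.5 and 69.4 units in Aff3+/- cells and 40.3 and 79.3 in Aff3-/- cells. Both arrays numbered 2 were above both arrays numbered 1, whatever the genotype, with a mean shift of 0.78 on the log2 scale. The genotype difference of +0.03 ± 0.40 (SE, n = 2) was far below this shift. Its interval, -1.01 to +1.08, was the widest of the 10 and still held a 2-fold change in either direction. The value became -0.47 when Aff3-/- replicate 2 was left out and +0.54 when Aff3-/- replicate 1 was.

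Of the 3 endoplasmic reticulum genes, 2 had a higher and 1 a lower mean in Aff3-/- cells. Sec11c was the most even of the 10, at 9993 and 10131 units in Aff3+/- and 10288 and 9886 in Aff3-/- cells. Its difference was +0.01 ± 0.11 (SE, n = 2), and the interval from -0.28 to +0.31 was the narrowest. Fkbp11 had the second largest difference.

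The Fkbp11 probe was dim, at 114 and 133 units in Aff3+/- and 128 and 152 in Aff3-/- cells. After scaling, Aff3-/- replicate 1 (-3.37, log2) lay just below Aff3+/- replicate 2 (-3.35), so that the genotypes overlapped. The difference was +0.19 ± 0.15 (SE, n = 2; interval -0.21 to +0.59), and it was positive within the arrays numbered 1 (+0.12) and those numbered 2 (+0.27).

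Txndc5 read 2014 and 2727 units in Aff3+/- and 2175 and 2393 in Aff3-/- cells. As for Prdm1, both Aff3-/- values lay between the Aff3+/- values. The difference was -0.03 ± 0.17 (SE, n = 2; interval -0.47 to +0.42), positive within the arrays numbered 1 (+0.06) and negative within those numbered 2 (-0.12).

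**Figure D2:**
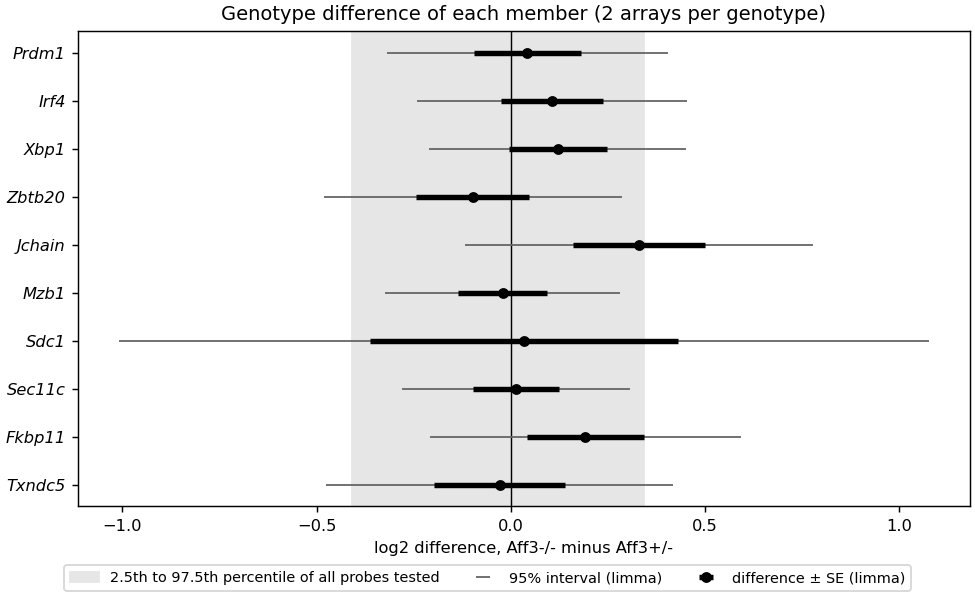
Log2 difference, Aff3-/- minus Aff3+/- (x axis), of each member with its SE (thick bar) and 95% interval (thin bar) from limma, 2 arrays per genotype. The grey band spans the central 95% of the differences of all 25115 probes, -0.41 to +0.34, and all 10 members lie inside it with intervals that include 0.

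Intervals of all 10 members included 0. For 9 of them the interval lay inside a 2-fold change in either direction, the exception being Sdc1. Half-widths ran from 0.29 (log2) for Sec11c to 1.04 for Sdc1, and a difference smaller than its half-width left 0 inside the interval in this fit. The intervals are not adjusted for the number of probes, so passing the adjusted threshold would take a larger difference. The widths also depend on the model and, for the dim Sdc1, on the background correction. With the replicate number as a block, the SE changed from 0.40 to 0.14 for Sdc1 and from 0.11 to 0.08 for Sec11c. With normexp background correction and no block it was 0.12 for Sdc1 and 0.11 for Sec11c.

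Arrays that share a replicate number were compared too, because Sdc1 followed the number. For 8 of the 10 members the mean shift between the arrays numbered 2 and those numbered 1 was larger than the genotype difference, and the same held for 73.3% of all probes. The shift was 0.26 for Txndc5, 0.22 for Jchain, 0.21 for Fkbp11 and -0.17 for Zbtb20. Jchain and Mzb1 were the 2 members whose genotype difference was the larger. In 3 members, Xbp1, Jchain and Fkbp11, the genotype difference had the same sign within both numbers, against 52.3% of all probes.

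**Figure D3:**
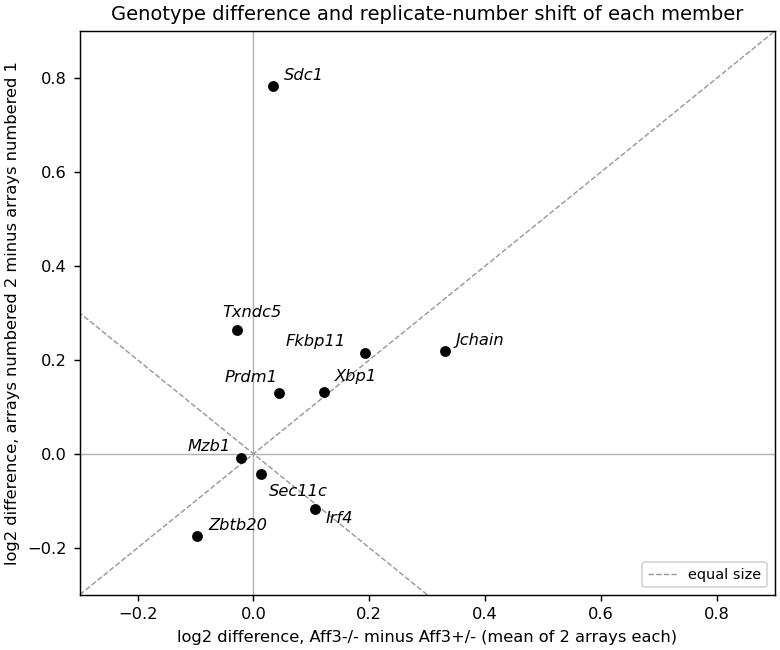
Genotype difference (x axis) against the shift between the arrays numbered 2 and numbered 1 (y axis), both in log2 units, 1 point per member. Dashed lines mark equal size. Sdc1 stands apart at a shift of 0.78, and only Jchain and Mzb1 have a genotype difference larger than their shift.

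Other genes of the pathway were described by list, with 1 probe per gene and no test of a list. No gene of any list passed the adjusted threshold in limma, and none had an unadjusted p under 0.05, where 253 of all 13778 named genes tested had one (1.84%). The median over those named genes was -0.0027, and 48.9% were higher. The arrays of the Aff3-/- genotype lay both above those of the other in 9.07% and both below in 10% (19.1% in either direction). Of 150 listed genes tested, 9 stand in more than 1 list.

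Further genes of the plasma cell programme were evenly split. Of 26 tested, 13 were higher and 13 lower, with a median of +0.02 and a range from -0.39 to +0.38. The median was -0.02 when either replicate 1 array was left out, +0.07 when Aff3+/- replicate 2 was, and -0.02 without the filter on dim probes. Between the arrays numbered 1 the median was +0.07, and between those numbered 2 it was -0.10. Both Aff3-/- arrays were above in 5 and below in 3. Eaf2, an elongation factor partner, read 36338 and 35103 units in Aff3+/- and 50346 and 38924 in Aff3-/- cells, a difference of +0.32 ± 0.16 (SE), with +0.11 for its dimmer probe. The costimulatory receptor gene Cd28 (+0.33 ± 0.13) was likewise above without overlap, at a dim 83.5 to 120 units. Tnfrsf13b, which encodes the BAFF and APRIL receptor TACI, read 4185 and 3909 units against 3448 and 3259, a difference of -0.26 ± 0.13. The integrin chain gene Itgb7 read 952 and 829 units in Aff3+/- and 714 and 633 in Aff3-/- cells (-0.39 ± 0.15). The genes named here thus lay on both sides of 0, as did the 26 tested.

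Genes of the B cell programme that plasma cells switch off had more members on the lower side. Of 30 tested, 23 were lower and 7 higher, with a median of -0.08, but only 3 were lower and 1 higher without overlap. The complement receptor gene Cr2 (-0.53 ± 0.32, SE) and the inhibitory receptor gene Cd22 (-0.25 ± 0.17) had the smallest p among the lower ones. Fcer2a, the low-affinity IgE receptor gene (+0.18 ± 0.19), and Cd86 (+0.15 ± 0.16) were the corresponding higher ones. The genotypes overlapped for all 4 of these genes. Leaving out Aff3+/- replicate 1 turned the median of the list to +0.02, and leaving out Aff3-/- replicate 2 turned it to +0.05. The median difference was -0.05 between the arrays numbered 1 and -0.06 between those numbered 2.

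Signal peptidase, translocon and signal sequence receptor genes, the machinery in which Sec11c works, spanned only -0.09 to +0.09. Of 31 tested, 23 were higher and 8 lower, with a median of +0.02, and 4 were higher and 2 lower without overlap. The translocon subunit gene Sec61a1 was +0.09 ± 0.15 (SE) and the oligosaccharyltransferase gene Stt3b +0.08 ± 0.12. On the lower side were Ddost (-0.09 ± 0.12), another subunit of that transferase, and Sec61a2 (-0.08 ± 0.13). Every one of these was smaller than its SE. The median was -0.05 when Aff3+/- replicate 1 was left out and -0.06 when Aff3-/- replicate 2 was. Between the arrays numbered 1 it was -0.0054, and between those numbered 2 it was +0.042.

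Relatives of Txndc5 and Fkbp11 among the luminal isomerases were centred near 0. Of 22 tested, 10 were higher and 12 lower, with a median of -0.0093 that changed sign with median scaling (+0.02). The oxidase gene Ero1a, which reoxidises disulfide isomerases, read 516 and 499 units in Aff3+/- and 599 and 587 in Aff3-/- cells, a difference of +0.23 ± 0.12 (SE). Fkbp10 was +0.22 ± 0.14 at a very dim 7.48 to 9.96 units. Erp29 (-0.06 ± 0.11) and Pdia4 (-0.04 ± 0.11) were the lower ones of smallest p. The median of the list was -0.0025 between the arrays numbered 1 and +0.035 between those numbered 2.

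Targets of Xbp1 and Atf6, the readout of the unfolded protein response, had a median of +0.03 over 28 genes, 18 higher and 10 lower. Both Aff3-/- arrays were above in 2 and below in 1. Derl1, a channel component for degradation, was +0.15 ± 0.11 (SE), and +0.18 for its other probe. Herpud1 was +0.27 ± 0.26, with genotypes that overlapped. The sensor gene Atf6 itself read 961 and 1004 units in Aff3+/- and 907 and 800.2 in Aff3-/- cells (-0.20 ± 0.12), and Syvn1, a ubiquitin ligase gene, was -0.06 ± 0.13. The median was -0.08 when Aff3+/- replicate 1 was left out and +0.15 when Aff3-/- replicate 1 was. Between the arrays numbered 1 it was -0.0041, and between those numbered 2 it was +0.074.

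Relatives of the members by family had a median of -0.02 over 22 genes, 8 higher and 14 lower, which became +0.0086 with median scaling. Between the arrays numbered 1 the median was -0.06, and between those numbered 2 it was -0.0062. Irf7 was -0.10 ± 0.12 (SE), below without overlap, and Sdc3, another syndecan, -0.19 ± 0.16. Bcl6b (+0.28 ± 0.60) and Atf6b (+0.08 ± 0.15) were on the higher side. Bcl6b, like Sdc1, was higher on both arrays numbered 2 (66.8 and 114 units) than on those numbered 1 (42.1 and 35.8).

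**Figure D4:**
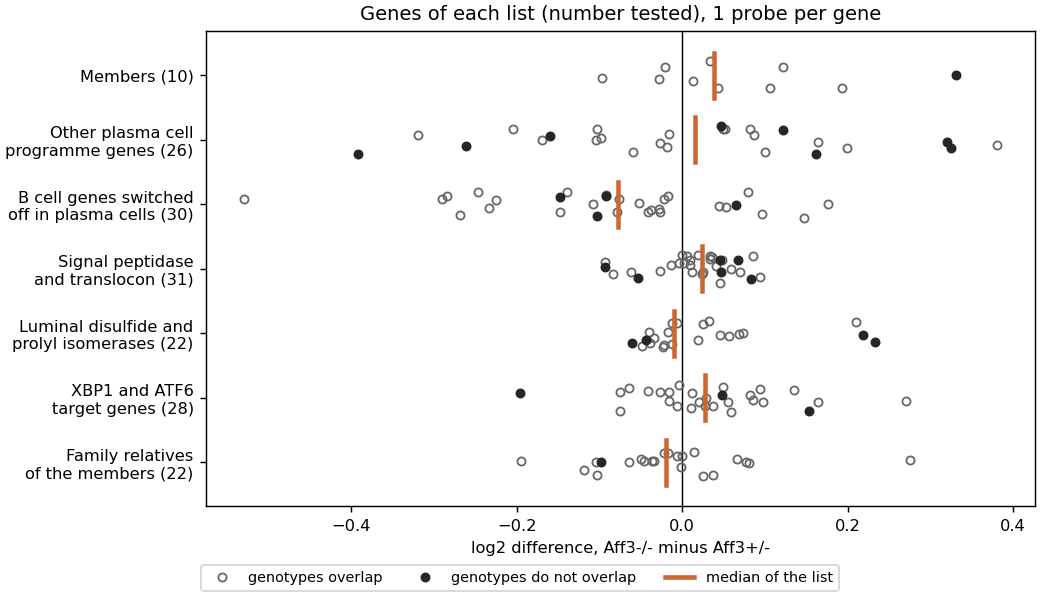
Log2 difference, Aff3-/- minus Aff3+/- (x axis), of each tested gene in the member set and the 6 lists, 1 point per gene, with the number tested in brackets. Filled points are genes whose genotypes do not overlap, and orange bars are list medians, which run from -0.08 for B cell genes to +0.04 for the members.

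The members were refitted under 14 alternatives of background correction, scaling, filter, model and left-out array. Xbp1, Jchain and Fkbp11 were positive in each alternative that gave a value, at +0.05 to +0.20, +0.13 to +0.53 and +0.05 to +0.34. The other 7 members changed sign in at least 1 of them. Jchain had the lowest adjusted p in any alternative, 0.70, with the replicate number as a block.

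**Figure D5:**
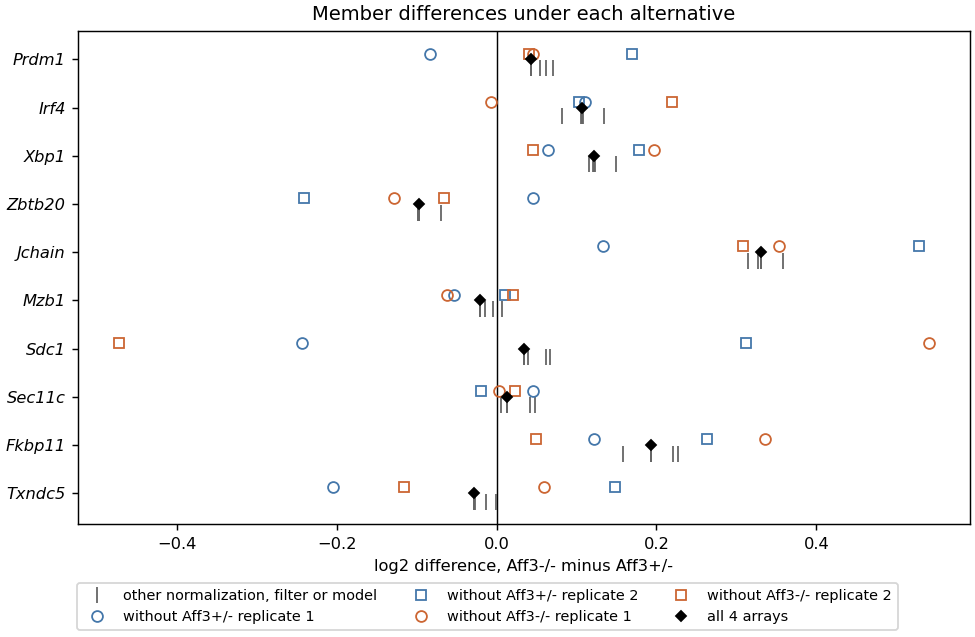
Log2 difference, Aff3-/- minus Aff3+/- (x axis), of each member with all 4 arrays (black diamonds), without 1 array (open symbols, blue for a left-out Aff3+/- and orange for a left-out Aff3-/- array) and under other settings (grey ticks). The open symbols spread most widely for Sdc1, from -0.47 to +0.54.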

How the data were processed

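RNA of 2 Aff3+/- and 2 Aff3-/- samples was read on 1-colour Agilent arrays, with groups and replicate numbers taken from the labels. Per the file headers, the deposited processed and median signals are intensity values that Agilent Feature Extraction 10.7.1.1 made per array, the former background-subtracted and detrended, with no normalization between arrays. A second deposited table holds log2 values centred on each probe's median, with column medians of 0.13, -0.04, -0.03 and 0.02. After a shift per array they match log2 of the scanner values in scale and direction (r = 1.00 for each array). How the authors chose that shift is not given in the sources used here.

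Control spots and outlier spots were left out. Log2 processed signals were scaled to each array's 75th percentile, spots of a probe were averaged, and a probe was kept if either genotype had it well above background on both its arrays (25115 of 39429). Probes were named by transcript accession from a RefSeq table of GRCm38.p6 (26575 named, 12854 not). The array design cites another build, so no gene coordinates of that table are given. Every probe was a row of the limma 3.58.1 fit in R 4.3.3 (lmFit, eBayes, 2 residual degrees of freedom, two-sided, Benjamini-Hochberg). Each listed gene took its probe of highest mean signal. Arrays give no counting depth, and their number limits the precision.

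Named genes were all members and, of each list, the 2 of smallest p in each direction. Members and lists were chosen with earlier results of these data known. Alternatives covered background correction, scaling, filter, probe rule, variance model, replicate block and each left-out array. Normexp (offset 50) used the median signal, since the planned mean signal was not among the columns used. The deposited scaling on all probes was added after seeing the data. The fit was tested on simulated data. Summed levels of 2 marker lists are not reported here.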

Additional observations from a re-analysis of the deposited data

How the results depend on the processing

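No probe passed the adjusted threshold in limma with all 4 arrays (494 had an unadjusted p under 0.05) or under any of the 14 alternatives (with the intensity trend 275, with the replicate block 1820). The replicate block left the count at 0 calls. Same-numbered samples deviated together (r = 0.56 across probes), but 2 numbers do not settle whether the samples are paired. Of the members' values under the alternatives, 122 kept direction and side of the threshold and 11 changed sign. Mzb1 turned to +0.0070 with median scaling. Leaving out 1 array gave -0.083 to +0.17 for Prdm1, -0.0063 to +0.22 for Irf4, -0.24 to +0.046 for Zbtb20, -0.062 to +0.020 for Mzb1, -0.47 to +0.54 for Sdc1, -0.019 to +0.046 for Sec11c and -0.20 to +0.15 for Txndc5.

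The members' median was +0.067 with median scaling and +0.032 to +0.16 without 1 array. Without 1 array the median was -0.19 to +0.054 for B cell programme genes, -0.023 to +0.072 for other plasma cell programme genes (-0.016 without the filter), -0.057 to +0.069 for signal peptidase and translocon genes and -0.046 to -7.4e-05 for family relatives. Family relatives stood at +0.0049 with normexp, +0.0086 with median scaling and -0.047 in the deposited values, where other plasma cell programme genes stood at -0.18. The deposited table lowers such medians by its own choice of probes, given among the other observations. The cause of the other changes was not tested. The number of arrays, and for Sdc1, Fkbp11, Cd28 and Fkbp10 a dim signal, limit the values of this report.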

Other observations

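The deposited log2 table, as used here, holds only probes that were brighter in Aff3+/- replicate 1 than in Aff3-/- replicate 1. After its own scaling this was so for 25308 of 25308 gene probes with values on every array, and for 0 of the 14104 gene probes outside the table. Of the members it holds 3, Zbtb20, Sdc1 and Sec11c. A share of higher or lower genes taken from that table is therefore set by its rows. In it the Aff3-/- arrays were both the higher for 0 probes and both the lower for 4670, against 2054 and 2867 among the 25115 probes tested from the scanner files. With the table's scaling applied to all probes tested, Jchain was +0.33 and the members' median +0.04, as with the 75th percentile.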
